A study of Mus musculus with 6 samples.

Results

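Notch signaling in the mouse cerebral cortex was followed through 10 genes, namely the receptors *Notch1*, *Notch2*, *Notch3* and *Notch4*, the ligands *Jag1*, *Jag2* and *Dll1*, and the target transcription factors *Hes1*, *Hes5* and *Hey1*. Every probe set whose gene symbol entry named a member was taken, which gave 19 of the 45077 probe sets on the array, for 10 of 22527 gene symbols. On this array a transcript is read by a set of short probes, called a probe set, and 7 of the members had more than 1. No member probe set was shared with another gene symbol. Cortical RNA of male mice, given as 16 weeks old by the labels, was hybridized to Affymetrix array strips for the mouse genome, with 2 biological samples in each of 3 groups. SAMP8, the senescence-accelerated prone strain, received by mouth either STEE, an ethanolic extract of sugarcane top, at 20 mg/kg (SAMP8 + STEE) or an equal volume of water (SAMP8 + Water, the SAMP8 control). SAMR1, the resistant strain that ages normally, received water as well (SAMR1 + Water). The study's methods give 16 weeks as the age of the mice when they entered the experiment, so they were older when the tissue was taken. Dosing lasted 30 days and went on through 8 days of behavioral testing, and all groups also drank BrdU, a label of dividing cells, for part of that time. SAMP8 and SAMR1 are separate inbred strains, so a difference between them belongs to the strain as a whole and to no single allele.

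Each value given here is the authors' mean log2 signal of a group, rounded to 2 decimals, and a difference is the difference of 2 such means. On this scale a difference of 0.263 is a 1.2-fold change, and rounding can shift a difference by up to 0.01. Because only group means entered, no spread between mice could be set beside any difference and no test was made, so every comparison is a description. SAMP8 + Water minus SAMR1 + Water and SAMP8 + STEE minus SAMP8 + Water share the SAMP8 control arrays, and SAMP8 + STEE minus SAMR1 + Water is their sum. Signals of different probe sets are not on a common scale, so no gene's level was set against another's, and brighter, dimmer or above the array's median refer to the strength of a probe set's signal only. The median log2 signal of the whole array was 4.16, 4.15 and 4.15 in SAMR1, the SAMP8 control and STEE-fed SAMP8. In whole cortex, fewer cells of a type and less RNA per cell cannot be told apart. Of the region markers, those of striatum were higher in both SAMP8 groups than in SAMR1 at 6 of 6 genes, and *Ttr*, the transthyretin of choroid plexus, was 10.20, 8.24 and 9.33 in SAMR1, SAMP8 control and STEE-fed SAMP8.

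Notch receptors are transmembrane proteins that are activated by ligands of the Jagged and Delta-like families on a neighbouring cell. Binding exposes the receptor to an ADAM protease and then to gamma-secretase, and the released intracellular domain enters the nucleus, where it joins the DNA-binding protein RBPJ and a Mastermind coactivator. The complex switches on the Hes and Hey genes, which encode basic helix-loop-helix repressors. In the developing cortex this pathway keeps neural progenitors undifferentiated, and in the adult brain it acts in neural stem cells, astrocytes and the walls of blood vessels.

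The promoters of *Hes5*, *Jag1* and *Notch1* are shown because *Hes5* is a direct target of the pathway and the other pair held the lowest differences between STEE-fed SAMP8 and SAMR1. They are the 250 bases before the transcription start in RefSeq (build GRCm38.p6), read 5′ to 3′ along the gene. The *Hes5* window lies at chr4:154960673-154960922 on the plus strand, the *Jag1* window at chr2:137116521-137116770 on the minus strand and the *Notch1* window at chr2:26503823-26504072 on the minus strand. Capitals mark GTGGGAA, the letters of the RBPJ motif, or their reverse complement TTCCCAC.
Hes5: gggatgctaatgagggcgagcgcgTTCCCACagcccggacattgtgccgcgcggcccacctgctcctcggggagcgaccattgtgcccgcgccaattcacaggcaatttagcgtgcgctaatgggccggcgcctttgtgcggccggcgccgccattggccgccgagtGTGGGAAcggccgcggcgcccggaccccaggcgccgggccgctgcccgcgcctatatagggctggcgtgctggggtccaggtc
Jag1: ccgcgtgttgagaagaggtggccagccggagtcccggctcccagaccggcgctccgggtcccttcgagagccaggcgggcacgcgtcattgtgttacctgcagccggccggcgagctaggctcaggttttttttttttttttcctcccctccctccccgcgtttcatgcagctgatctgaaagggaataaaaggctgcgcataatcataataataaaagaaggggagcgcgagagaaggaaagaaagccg
Notch1: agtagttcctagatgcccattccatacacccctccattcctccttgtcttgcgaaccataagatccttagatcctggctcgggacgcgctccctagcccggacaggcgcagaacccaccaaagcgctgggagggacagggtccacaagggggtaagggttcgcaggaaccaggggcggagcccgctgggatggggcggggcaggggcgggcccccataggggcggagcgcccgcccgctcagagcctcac
In the *Hes5* window GTGGGAA began 83 bases before the start and the reverse complement 226 bases before it, so the motif stood on both strands. The *Jag1* and *Notch1* windows held neither. Of 32851 mouse promoter windows of the same length, 5.42% held GTGGGAA on either strand and 0.0548% on both. The shorter core TGGGAA, which lies within GTGGGAA, was on either strand in 21.6% of all windows and on both in 1.28%. Windows were found for 8 of the 10 members, 9 windows in all, and *Hes5* was the only one with TGGGAA on either strand. *Hes1* and *Hey1* had no entry. A match is a run of letters and not a measured binding site.

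Most Notch probe sets had lower means in the SAMP8 control than in SAMR1, most had lower means with STEE than in the SAMP8 control, and the differences were small. In the SAMP8 control relative to SAMR1, 16 of the 19 were lower, against 49.6% of all probe sets, with a median difference of -0.09 against 0.00 over all. None of the 19 differed by 1.2-fold, a size reached by 7.11% of all probe sets. With STEE relative to the SAMP8 control, 16 of 19 were lower, against 48.1% of all, and the median difference was -0.08 against 0.00. *Hes1* and a probe set of *Jag1* were past 1.2-fold there, both lower with STEE, where 2.01% of all probe sets were past it in either direction. In STEE-fed SAMP8 relative to SAMR1, 17 of 19 were lower, against 52.4% of all, with a median difference of -0.17 against -0.01. A probe set of *Jag1* and both probe sets of *Notch1* were past 1.2-fold, all lower with STEE, where 7.85% of all probe sets were. Several probe sets read the same gene, so the 19 are not separate genes. Read once per gene at the brightest probe set, 8, 8 and 9 of the 10 genes were lower in the 3 comparisons. The medians over genes were -0.10, -0.045 and -0.17. With STEE relative to the SAMP8 control, 3 of the 10 genes had probe sets in both directions.

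A looser limit of 1.1-fold was passed by 8 of the 19 in the strain comparison, by 3 with STEE relative to the SAMP8 control and by 11 with STEE relative to SAMR1. The shares of all probe sets past 1.1-fold were 25.9%, 16.2% and 27.6%. No member probe set reached 1.5-fold in any of the 3 comparisons, and 0.876%, 0.0799% and 1.02% of all probe sets did. Of the 19 member probe sets, 10 had a signal at or above the median of all probe sets. Of those 10, 9, 8 and 9 were lower in the comparisons in the order just given, against 47.7%, 41.5% and 45.3% of all probe sets at or above the median.

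**Figure D1:**
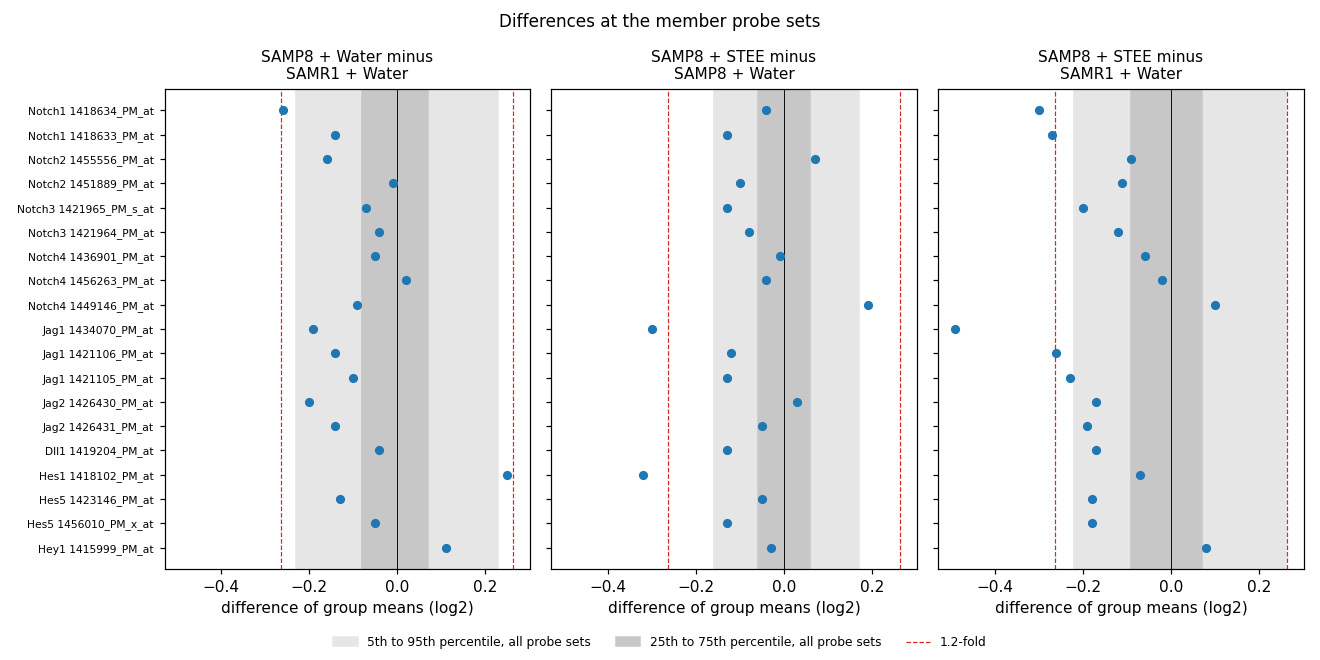
Difference of group means on the log2 scale (horizontal) at each of the 19 member probe sets (rows) in the 3 comparisons (panels). Grey bands hold the middle of all 45077 probe sets and dashed lines mark 1.2-fold. Most points lie left of 0, with *Jag1* at -0.30 and *Hes1* at -0.32 leftmost in the middle panel and *Jag1* at -0.49 leftmost in the right panel.

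Among the receptors, *Notch1* had the lowest difference from SAMR1 in both SAMP8 groups when each gene was read at its brightest probe set, and *Notch4* stayed close to 0 at its brighter probe sets. *Notch1*, the receptor best known for maintaining neural progenitors, was read by a pair of probe sets. At 1418634_PM_at the mean was 6.46 in SAMR1, 6.20 in the SAMP8 control and 6.16 in STEE-fed SAMP8. At 1418633_PM_at it was 6.10, 5.96 and 5.83. Both therefore ran in the same order, with SAMR1 highest and STEE-fed SAMP8 lowest, but they divided the difference unequally. At the former the SAMP8 control differed from SAMR1 by -0.26 and STEE-fed SAMP8 from the SAMP8 control by -0.04, while at the latter these were -0.14 and -0.13. Between STEE-fed SAMP8 and SAMR1 they differed by -0.30, or 1.23-fold, and by -0.27, or 1.21-fold. The first of these strain differences and the second of these STEE-to-SAMR1 differences lie within 0.01 of the 1.2-fold limit, which rounding could move across it.

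*Notch2*, a close relative of *Notch1* in structure, gave 5.69, 5.53 and 5.60 at 1455556_PM_at in SAMR1, SAMP8 control and STEE-fed SAMP8. Its dimmer probe set 1451889_PM_at gave 4.94, 4.93 and 4.83. SAMR1 was the highest group at both, but the probe sets disagreed on the direction with STEE, with differences of 0.07 and -0.10. *Notch3*, the receptor of pericytes and vascular smooth muscle, gave 5.53, 5.46 and 5.33 at 1421965_PM_s_at, whose suffix says that its probes can match several transcripts. At 1421964_PM_at *Notch3* gave 3.09, 3.05 and 2.97. Both *Notch3* probe sets were highest in SAMR1 and lowest with STEE, and the differences from SAMR1 to STEE-fed SAMP8 were -0.20 and -0.12.

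*Notch4*, a receptor mainly of endothelial cells, was read by 3 probe sets, all under the median signal of the array. They gave 3.79, 3.74 and 3.73 at 1436901_PM_at, 3.64, 3.66 and 3.62 at 1456263_PM_at, and 3.45, 3.36 and 3.55 at 1449146_PM_at. Their differences with STEE relative to the SAMP8 control were -0.01, -0.04 and 0.19, so the dimmest probe set stood apart from the brighter pair. Over all 9 receptor probe sets, 8, 7 and 8 were lower in the strain comparison, with STEE relative to the SAMP8 control, and with STEE relative to SAMR1.

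**Figure D2:**
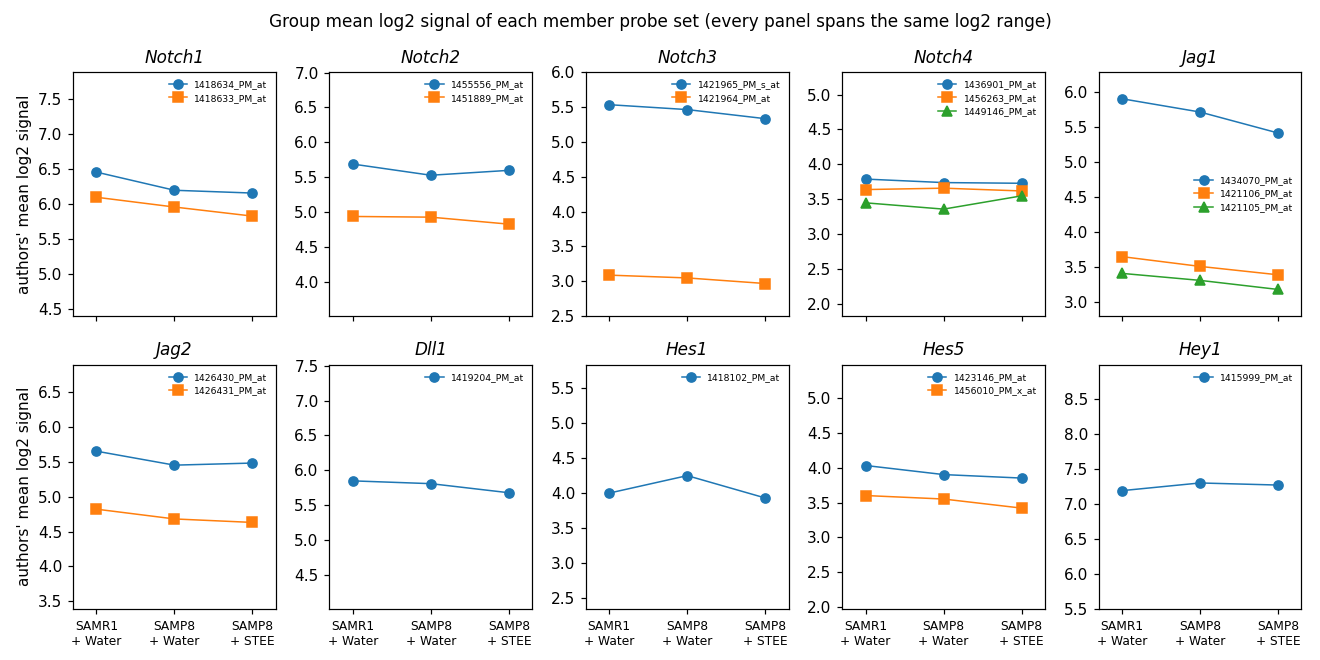
The authors' mean log2 signal (vertical) in SAMR1 + Water, SAMP8 + Water and SAMP8 + STEE (horizontal) for each member gene, with a line for each probe set. Lines join the means of 2 arrays and have no error bars; every panel spans the same log2 range around its own values, and *Jag1* runs from 5.91 to 5.42 at its brightest probe set.

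The ligands showed the widest difference of the set, at *Jag1*. *Jag1* encodes Jagged1, a membrane ligand made by neural progenitors, astrocytes and the vessel wall. At its brightest probe set, 1434070_PM_at, the mean was 5.91 in SAMR1, 5.72 in the SAMP8 control and 5.42 in STEE-fed SAMP8. The step from SAMR1 to the SAMP8 control was -0.19, or 1.14-fold, and the step from the SAMP8 control to STEE was -0.30, or 1.23-fold. Together they made -0.49, or 1.40-fold, and 0.652% of all probe sets were as far or farther below SAMR1 with STEE. The other *Jag1* probe sets were dimmer, at 3.65, 3.51 and 3.39 for 1421106_PM_at and 3.41, 3.31 and 3.18 for 1421105_PM_at. All 3 probe sets thus had the same order of groups, with SAMR1 highest and STEE-fed SAMP8 lowest. With STEE relative to the SAMP8 control the dimmer pair lay at -0.12 and -0.13, so the 1.2-fold limit was passed at 1 of the 3. The array design lists the brightest probe set under a different transcript from the one that the dimmer pair share.

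*Jag2*, the second Jagged ligand, gave 5.65, 5.45 and 5.48 at 1426430_PM_at and 4.82, 4.68 and 4.63 at 1426431_PM_at. Both probe sets were lower in the SAMP8 control than in SAMR1, with differences of -0.20 and -0.14, and STEE-fed SAMP8 was close to the SAMP8 control, at 0.03 and -0.05. *Dll1* encodes Delta-like 1, a ligand carried by newborn neurons and their committed precursors. Its single probe set gave 5.85, 5.81 and 5.68, so the SAMP8 control was close to SAMR1 and STEE-fed SAMP8 was the lowest group, with a difference of -0.13 from the SAMP8 control. All 6 ligand probe sets were below SAMR1 in both SAMP8 groups, and their differences between STEE-fed SAMP8 and SAMR1 ran from -0.49 to -0.17.

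All 4 probe sets of the target transcription factors had lower means with STEE than in the SAMP8 control. The shares lower were 48.1% of all probe sets and 54.7% of those under the median signal. Between the strains 2 of the 4 were lower and 2 higher in the SAMP8 control. *Hes1* encodes a repressor that oscillates in neural progenitors and also answers to signals other than Notch. Its single probe set 1418102_PM_at gave 4.0 in SAMR1, 4.25 in the SAMP8 control and 3.93 in STEE-fed SAMP8. The SAMP8 control was therefore the highest group, 0.25 above SAMR1, or 1.19-fold, and STEE-fed SAMP8 differed from it by -0.32, or 1.25-fold. Between STEE-fed SAMP8 and SAMR1 the difference was -0.07. A difference with STEE as low or lower was found at 0.461% of all probe sets. The signal lay slightly under the array's median, and no second probe set was there to compare it with.

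*Hes5*, the target that depends most closely on Notch in neural stem cells, gave 4.03, 3.90 and 3.85 at 1423146_PM_at and 3.60, 3.55 and 3.42 at 1456010_PM_x_at. The suffix of the latter says that its probes can also match other transcripts. Both *Hes5* probe sets lay under the array's median signal. At both, STEE-fed SAMP8 differed from SAMR1 by -0.18, or 1.13-fold, and neither was past 1.2-fold in any of the 3 comparisons. Its promoter is the one above that holds the RBPJ letters on both strands. *Hey1*, which encodes a related repressor prominent in blood vessels, had a single probe set and gave 7.19, 7.30 and 7.27. Its SAMP8 control mean was 0.11 above SAMR1, and STEE-fed SAMP8 differed from the SAMP8 control by -0.03. *Hes1* and *Hey1* were thus above SAMR1 in the SAMP8 control, where *Hes5* was below it.

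Beyond the members, 53 of 54 other Notch pathway genes were on the array with 112 probe sets, *Maml3* being the one not found under its symbol. Past 1.2-fold were 7 of the 112 (6.25%) in the strain comparison, 5 (4.46%) with STEE relative to the SAMP8 control and 9 (8.04%) with STEE relative to SAMR1, beside 7.11%, 2.01% and 7.85% of all probe sets. Lower means were found at 56, 57 and 68 of the 112, or 50.0%, 50.9% and 60.7%, beside 49.6%, 48.1% and 52.4% of all probe sets. The first 2 shares were thus close to those of the whole array. The median differences were -0.005, -0.01 and -0.035. By the probe set of highest signal, 6 of the 53 genes were past 1.2-fold in a comparison, namely *Nrarp*, *Dlk1*, *Hey2*, *Ctbp2*, *Aph1a* and *Numb*. The 5 probe sets past it with STEE relative to the SAMP8 control were those of *Hey2* at -0.30 and *Nrarp* at -0.27 and dimmer probe sets of *Rbpj* at -0.30, *Neurl1a* at -0.33 and *Aph1a* at 0.28, the last 3 named after their values were seen. The *Nrarp* value lies within 0.01 of the 1.2-fold limit, so rounding could move it across.

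*Nrarp*, a direct Notch target whose small ankyrin protein feeds back to destabilise the Notch complex, gave 6.48, 6.19 and 5.92 at its brighter probe set. Its differences were -0.29 in the strain comparison, -0.27 with STEE relative to the SAMP8 control and -0.56 with STEE relative to SAMR1, or 1.47-fold. The dimmer *Nrarp* probe set gave 5.61, 5.57 and 5.50, in the same order of groups but with differences of -0.04, -0.07 and -0.11. *Hey2*, the partner of *Hey1* in blood vessels, gave 2.78, 3.16 and 2.86, so the SAMP8 control was 0.38 above SAMR1 and STEE-fed SAMP8 differed from it by -0.30. These *Hey2* values rest on a single probe set of low signal, with a mean of 2.93 over the 3 groups, under the array's median. *Heyl* at its brightest probe set gave 4.07, 3.92 and 3.84, and *Hes6* gave 4.60, 4.43 and 4.34. Of the 9 probe sets of the other Hes and Hey factors, 8 were lower with STEE than in the SAMP8 control and 1 was equal, against 48.1% of all lower. *Hey2* was the one past 1.2-fold. Most of the 9 had a signal under the array's median, where 54.7% of all probe sets were lower with STEE.

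Among the ligands outside the member list, *Dlk1*, an imprinted membrane protein that lacks the part of a canonical ligand that binds Notch, gave 5.29, 4.89 and 4.84 at its brighter probe set and 4.67, 3.86 and 3.85 at the other. It was thus lower in both SAMP8 groups than in SAMR1, with differences of -0.40 and -0.81 in the control, and STEE-fed SAMP8 was close to the control, at -0.05 and -0.01. *Dll4*, the endothelial Delta-like ligand, gave 3.55, 3.66 and 3.57, and *Dner*, a neuronal membrane protein proposed as a Notch ligand, gave 9.79, 9.77 and 9.72.

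In the nucleus, *Rbpj*, which encodes the DNA-binding partner of Notch, gave 6.66, 6.66 and 6.68 at its brightest probe set. A second *Rbpj* probe set, named here after its values were seen, gave 5.06, 5.27 and 4.97, a pattern that the brightest did not share. *Snw1*, a coactivator that also belongs to the spliceosome, gave 7.42, 7.46 and 7.62 at its brightest probe set. Its other probe sets gave 7.19, 7.35 and 7.54 and 3.35, 3.57 and 3.66, and were 0.35 and 0.31 above SAMR1 with STEE. They are named after their values were seen and were the 2 higher ones among the 9 pathway probe sets past 1.2-fold with STEE relative to SAMR1, the other 7 being lower. Of the corepressors, *Ctbp2* gave 7.29, 7.06 and 6.83, with a difference of -0.46 between STEE-fed SAMP8 and SAMR1 and of -0.42 at its other probe set. *Ncor1* was nearly level at 9.69, 9.74 and 9.67.

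Of the proteases, *Aph1a*, a gamma-secretase subunit, gave 7.17, 6.84 and 6.91, so that the SAMP8 control differed from SAMR1 by -0.33. *Adam10*, the sheddase that makes the first cut, gave 8.34, 8.34 and 8.41. None of the 7 ADAM probe sets and none of the 9 glycosyltransferase probe sets was past 1.2-fold in any of the 3 comparisons, and *Rfng*, a Fringe enzyme that adds sugar to the receptors, gave 7.41, 7.38 and 7.48. *Mib1*, a ubiquitin ligase that ligands need in order to signal, gave 8.49, 8.47 and 8.56. Among the inhibitors, *Numb*, an adaptor that sends Notch to endosomes, gave 7.55, 7.87 and 7.70 and was 0.32 above SAMR1 in the SAMP8 control. *Fbxw7*, which marks the Notch intracellular domain for degradation, gave 9.50, 9.54 and 9.71.

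**Figure D3:**
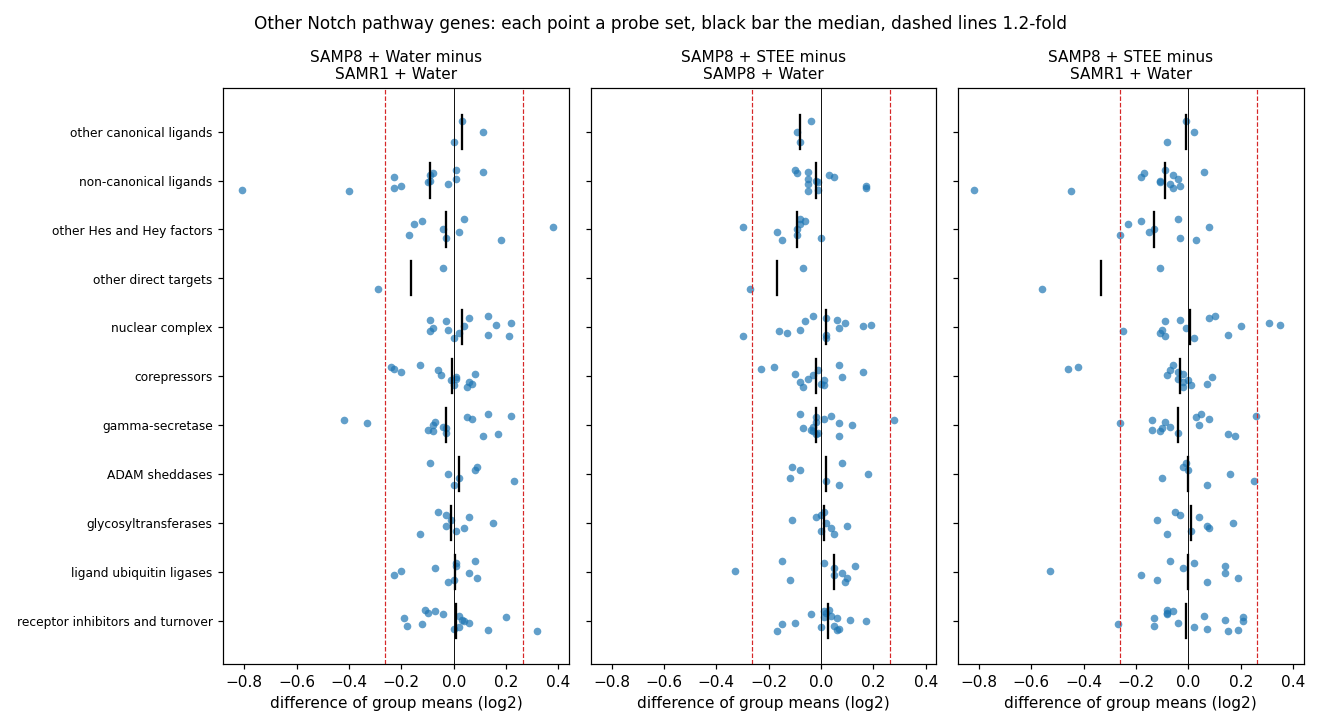
Difference of group means on the log2 scale (horizontal) for the 112 probe sets of the other Notch pathway genes, grouped by role (rows), in the 3 comparisons (panels). Each point is a probe set, black bars are medians and dashed lines mark 1.2-fold; the points farthest left are *Dlk1* at -0.81 and -0.82 in the left and right panels.

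The members are made by several cell types, so the means of cell type markers were read in the same samples. Over the brightest probe set of each gene, the 6 astrocyte markers averaged 8.71, 8.65 and 8.63 in SAMR1, SAMP8 control and STEE-fed SAMP8. The 6 endothelial markers averaged 4.82, 4.78 and 4.78, and the 6 mural cell markers 5.45, 5.44 and 5.37. None of the brightest probe sets of these 18 genes was past 1.2-fold with STEE relative to the SAMP8 control, a size reached by 2.01% of all probe sets. In the strain comparison *Cldn5*, a tight junction protein of endothelium, was -0.28 and *Pdgfrb*, a pericyte receptor, was -0.32. At their brightest probe sets the other endothelial genes ran from -0.09 to 0.17 there and the other mural genes from -0.07 to 0.21. Over all probe sets, 16 of 25 astrocyte and 7 of 10 endothelial ones were lower in the SAMP8 control than in SAMR1, against 49.6% of all. Their median differences were -0.09 and -0.035. Of the 13 mural ones, 9 were higher, with a median of 0.07. Among these was *Rgs5*, a pericyte gene, at 0.73, 0.34 and 1.11 at 3 of its 4 probe sets, with -0.01 at the brightest. The next values, with STEE relative to the SAMP8 control, are those of the brightest probe sets. *Gfap* of astrocytes was -0.22, *Tek* of endothelium -0.22, and *Acta2* and *Tagln* of smooth muscle were -0.23 and -0.20, beside *Jag1* at -0.30 and *Hes1* at -0.32. The other astrocyte markers (*Aqp4*, *Gja1*, *Slc1a3*, *Slc1a2* and *Aldh1l1*) ran from -0.11 to 0.17. The other endothelial markers (*Cldn5*, *Pecam1*, *Flt1*, *Kdr* and *Cdh5*) ran from -0.11 to 0.15. The other mural markers (*Pdgfrb*, *Rgs5*, *Myh11* and *Kcnj8*) ran from -0.09 to 0.12. Over all probe sets the astrocyte list ran from -0.22 to 0.17, the endothelial list from -0.25 to 0.15 and the mural list from -0.26 to 0.12. Lower with STEE than in the SAMP8 control were 12 of 25 astrocyte, 5 of 10 endothelial and 9 of 13 mural probe sets, against 48.1% of all. The medians were 0.00, -0.01 and -0.09. The part of these cell types in the result was not tested.

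The striatal, oligodendrocyte and choroid plexus lists differed more between the strains than with STEE. The 6 striatal markers averaged 7.15, 7.76 and 7.82, and all 6 were past 1.2-fold above SAMR1 in both SAMP8 groups, with *Ppp1r1b* at 7.13, 8.0 and 7.97. The 6 oligodendrocyte markers averaged 9.79, 9.48 and 9.47, and 21 of their 21 probe sets were lower in the SAMP8 control than in SAMR1, with *Mog* at -0.63, *Mobp* at -0.39, *Cnp* at -0.34 and *Mag* at -0.31. The 6 choroid plexus markers averaged 4.80, 4.31 and 4.52. In the strain comparison 3 of them were past 1.2-fold at the brightest probe set, with *Ttr* at -1.96, *Kcnj13* at -0.43 and *Otx2* at -0.32. *Kcnj13* and *Otx2* lay under the array's median signal. The rest of the choroid plexus list ran from -0.18 to 0.02, so *Ttr* weighed most in the average. Meningeal markers averaged 4.88, 4.73 and 4.77, microglial markers 6.59, 6.58 and 6.58, blood markers 7.94, 7.95 and 7.94, and cortical neuron markers 8.96, 9.04 and 9.11. Of these last 4 lists, *Dcn* of meninges was -0.36 in the strain comparison, *Aif1* of microglia 0.27 with STEE relative to SAMR1, and *Cux2* of upper-layer neurons -0.27 between the strains and 0.30 with STEE relative to the SAMP8 control. At the brightest probe sets, 4 of the 5 meningeal genes were lower between the strains and 1 was higher. With STEE relative to SAMR1, 3 of the 5 microglial genes were higher and 2 lower. Of the 7 cortical neuron genes, 6 were higher and 1 lower between the strains. With STEE relative to the SAMP8 control, 5 of these 7 were higher and 2 lower. The 16 of 19 Notch probe sets lower in the SAMP8 control stand beside these strain differences in the amounts of striatal, myelin and choroid plexus transcripts, and their part in the result was not tested.

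**Figure D4:**
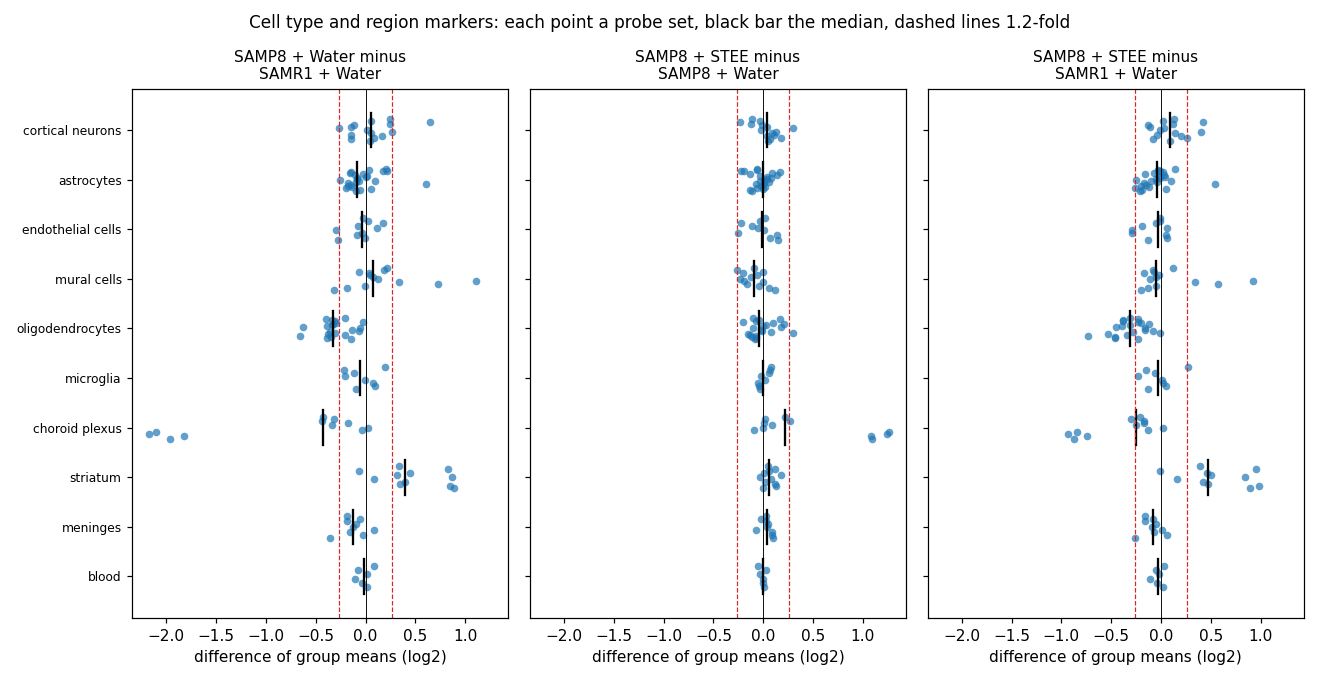
Difference of group means on the log2 scale (horizontal) for the probe sets of cell type and region markers (rows) in the 3 comparisons (panels). Each point is a probe set, black bars are medians and dashed lines mark 1.2-fold; in the left panel 10 of 11 striatal probe sets lie right of 0, and 21 of 21 oligodendrocyte and 10 of 11 choroid plexus probe sets left of 0, with the *Ttr* probe sets of choroid plexus the farthest from 0.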

How the data were processed

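RNA from cerebral cortex was labeled with a 3′ amplification kit and hybridized to Affymetrix array strips for the mouse genome, 2 arrays for each of 3 groups. The authors summarized the scanned arrays by RMA in Expression Console and took group averages in Transcriptome Analysis Console. RMA corrects the background and makes the distributions of the arrays equal, so a shift common to all genes would be removed. The deposited tables give, for each of 45077 probe sets, log2 group means (bi-weight averages) to 2 decimals; the genome build is not given in the sources used here. They also hold the authors' fold changes, ANOVA p-values and FDR p-values of each comparison, which were not used. The SAMP8 control means were identical in the 2 tables.

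Groups followed the sample labels. Differences of the log2 means were computed in Python 3.11.15 with numpy 2.4.6 and pandas 2.3.3, and figures with matplotlib 3.10.9. A probe set was counted as past the limit at 1.2-fold in either direction. Where 1 value was needed for a gene, the probe set with the highest mean over the 3 groups was used. Members and every probe set of them were named, then pathway genes past 1.2-fold at that probe set and 1 or 2 others per list, and markers by the same limit together with those of vessels and astrocytes. The counting was run on simulated group means without noise, in which every added change exceeded the limit, so only the code was checked. The members and gene lists were chosen with earlier results of these data known. *Drd1* was matched through its older symbol on the array. Promoters came from RefSeq tables of GRCm38.p6. Other fold limits, centring on group medians, filters on signal and on probe set suffix, and averaging over probe sets were tried as alternatives. With 2 arrays behind each mean, their number limits its precision. Values of 3 genes on these lists are not reported here.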

Additional observations from a re-analysis of the deposited data

How the results depend on the processing

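At a limit of 1.1-fold, the member probe sets past it numbered 8 in the strain comparison, 3 with STEE relative to the SAMP8 control and 11 with STEE relative to SAMR1, and those of the other pathway genes 28, 20 and 36. At 1.5-fold the members numbered 0 in each comparison. Among the 10 member probe sets at or above the median signal, 9, 8 and 9 were lower and 0, 1 and 3 were past 1.2-fold; fewer probe sets are counted there by construction, and *Hes1* is among those left out. Of 36 counts under alternatives, 25 stayed within 1.5 times, including centring on group medians, which left 15, 16 and 17 lower and 0, 2 and 2 past 1.2-fold. Of 90 differences of single genes recomputed, 4 changed sign, at *Notch2*, *Notch4* and *Jag2*, none of them past 1.2-fold. All 4 came under the mean over probe sets, which can differ only for members with more than 1 probe set. Most of the other recomputed values could hardly change. Leaving out suffixed probe sets altered the brightest one at *Notch3* only, and centring shifted all genes alike by the small differences between group medians. The 90 are therefore no measure of how stable the directions are. Averaged over its 3 probe sets, *Jag1* differed by -0.143, -0.183 and -0.327. No paired analysis was possible because only group means were used, and for that reason no array could be left out in turn.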
